A study of Mus musculus with 8 samples.

Results

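The angiotensin and endothelin genes of cultured mouse cardiac fibroblasts comprised 8 rows of the deposited count table of 55414 genes. They were chosen by symbol: Agt, Ace, Agtr1a and Agtr2 of the angiotensin system, and Edn1, Ece1, Ednra and Ednrb of the endothelin system. The question put to them was how strongly each is expressed and whether it differed between cultures given a Has2 adenovirus and cultures given a GFP adenovirus, paired by replicate number. Has2 encodes a hyaluronan synthase, the membrane enzyme that makes the matrix polysaccharide hyaluronan, and the GFP virus is the control for infection.

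The cells were C57BL/6J cardiac fibroblasts at passage 2. All 8 cultures were serum starved for 24 h, exposed to virus for 5 h, and then kept for 48 h in medium with bFGF and TGFb, the latter factors at 20 ng/mL, so the control cultures were growth factor stimulated too. The 4 GFP virus cultures and the 4 Has2 virus cultures carry the replicate numbers 1 to 4, of which 1 and 2 are female and 3 and 4 male. The labels give the genotype as wild type, whereas the protocol names animals with a floxed Has2 gene. The age of the animals is not given. Nothing in the labels says that the cultures of a group came from separate animals, and the spread that the p-values measure may be partly technical. Libraries of the same number share the code that opens their names. These codes start with one letter in the females and another in the males, so sex and whatever the letter stands for cannot be told apart.

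In the renin-angiotensin system, angiotensinogen (Agt) is cut by renin to angiotensin I, which angiotensin-converting enzyme (Ace) trims to the octapeptide angiotensin II. Angiotensin II acts through the G protein coupled receptor AT1, encoded in mouse by the paralogues Agtr1a and Agtr1b, and through AT2 (Agtr2). Endothelin-1 is made as a precursor from Edn1, matured by endothelin-converting enzyme (Ece1), and read by the receptors ETA (Ednra) and ETB (Ednrb). In the heart both systems are known for acting on fibroblasts, where they promote matrix synthesis and contractile differentiation, and ETB also takes up endothelin-1.

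Libraries held 46981231 to 55795187 counts. The virus labels were checked on Has2 itself, which was at 7.36 to 25.2 CPM (counts scaled to a common library total) with the GFP virus and 3209 to 9533 CPM with the Has2 virus, a log2 fold change of 8.46 (SE 0.55, edgeR adjusted p = 0.0226). These counts may hold viral and cellular Has2 transcripts together. Summed markers of fibroblasts (10 of 10 detected) were at 19827 to 34561 CPM, of macrophages (10 of 10) at 912 to 2523 CPM, of endothelial cells (10 of 10) at 31.9 to 58.0 CPM, and of mural cells (8 of 8) at 49.6 to 98.0 CPM. Cardiomyocyte markers summed to 4.59 to 9.17 CPM, with Pln at 0 counts. In a library of mixed cells, fewer cells of a type and less RNA per cell cannot be told apart.

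The converting enzymes were by far the most abundant of the 8 transcripts, and the peptide precursors and receptors were low. Levels between genes were compared as CPM per kilobase of the longest annotated transcript. In the GFP virus libraries Ece1 stood at 64.1 ± 15.1 CPM per kilobase (SD, n = 4) and Ace at 59.6 ± 11.3 (SD, n = 4). Their ranges overlapped, Ece1 was above Ace in 4 of all 8 libraries, and in the Has2 virus libraries the order of the means was the other way round, with Ace at 76.8 and Ece1 at 73.8 CPM per kilobase. That closeness depends on the length used: per kilobase of the median transcript length, Ece1 was at 589 ± 138 and Ace at 96.5 ± 18.3 CPM (SD, n = 4 each), while Agt stayed at 3.87.

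Agt came next at 3.87 ± 1.27 CPM per kilobase (SD, n = 4) with the GFP virus, 15.4-fold below Ace and with no overlap in any library. Agt was above Ednra in 8 of 8 libraries. Ednra followed at 1.94 ± 0.397 and Edn1 at 1.28 ± 0.579 CPM per kilobase (SD, n = 4 each). Ednra was above Edn1 in 8 of 8 libraries, although the ranges of the genes overlapped across libraries. Agtr1a at 0.389 ± 0.314 and Ednrb at 0.301 ± 0.107 CPM per kilobase (SD, n = 4 each) were the lowest genes that passed the expression filter, and they overlapped each other. Agtr1a also overlapped Edn1. With the median transcript length in place of the longest, Agtr1a stood above Edn1, and without division by length Ednrb stood above Agtr1a.

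**Figure D1:**
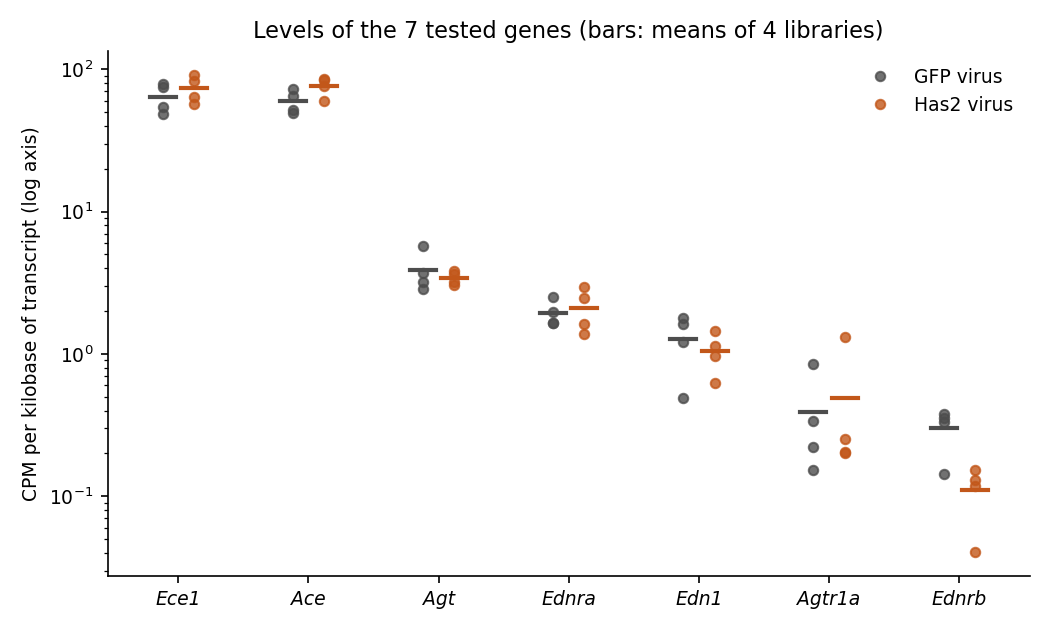
CPM per kilobase of longest transcript (log axis) of the 7 genes that passed the expression filter, one point per library, with bars at the means of 4 GFP virus and 4 Has2 virus libraries. Ece1 and Ace lie more than 10-fold above the other genes in mean level, and Ednrb is the lowest.

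With the Has2 virus the clearest difference among the 8 genes was in Ednrb, the ETB receptor, which was lower in 4 of 4 pairs, at a fitted level 2.77-fold below that with the GFP virus. Ace and Ece1 were higher in 4 of 4 pairs by 1.29-fold and 1.15-fold. Agt, Edn1, Ednra and Agtr1a showed no common direction. After adjustment over the 15150 genes tested none of the 7 members that passed the filter was called (adjusted p under 0.05, edgeR quasi-likelihood test with the replicate block). Before adjustment, at p under 0.05, Ace was higher and Ednrb lower.

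These counts have to be read against how few genes of any kind were called. In that fit 0.0066% of all genes passed, which is Has2 alone. Without the block the share was 0.0066% as well, and 0 of 7 members passed. At an unadjusted p under 0.05, 2.57% of genes were higher and 4.91% lower, against 1 of 7 members in each direction. Being lower in all 4 pairs was true of 7.96% of genes and of 1 of 7 members, and being higher in all 4 pairs of 9.16% of genes and of 2 of 7 members. The groups did not overlap for 2.38% of genes and for 0 of 7 members. The median log2 fold change was 0.08 over the 7 members and -0.02 over all genes tested.

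**Figure D2:**
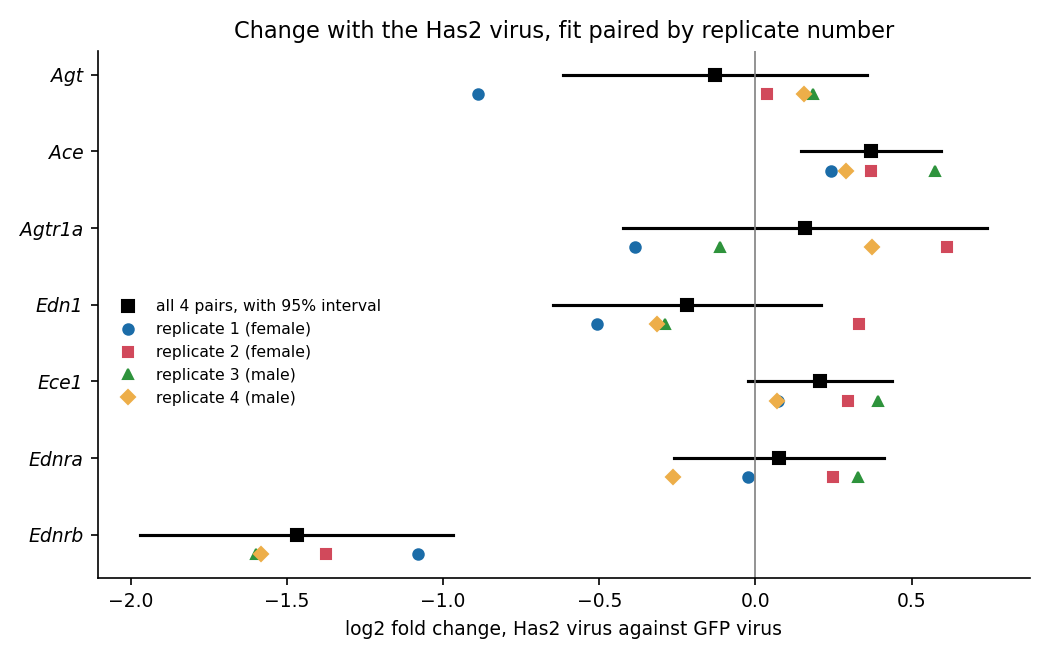
Log2 fold change, Has2 virus against GFP virus, of the 7 genes tested. Black squares with lines are the paired fit with its 95% interval, and coloured symbols are the difference of log2 CPM in each pair. The interval lies wholly below 0 for Ednrb and wholly above 0 for Ace, before adjustment over all genes.

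Agt, the precursor of all angiotensin peptides, was at 10.8, 7.01, 6.03 and 5.42 CPM in GFP virus replicates 1 to 4 and at 5.80, 7.20, 6.85 and 6.05 CPM in the Has2 virus libraries. GFP virus replicate 1 stands above the other 7 libraries, which lie between 5.42 and 7.20 CPM with the groups intermixed. Has2 virus against GFP virus, the fit gave -0.13 on the log2 scale (SE 0.20), with a 95% interval of -0.61 to 0.36 and an edgeR adjusted p of 0.870. Without the first pair it was 0.16, so its direction rests on that pair. The same GFP virus library held 1052 CPM of 20 transcripts of liver-type secreted proteins, such as albumin and apolipoproteins, against 8.41 to 21.7 CPM in the other 7 libraries. Agt is itself made mainly by the liver. The part of that signal in the Agt value was not tested.

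Edn1, the endothelin-1 precursor, was at 3.49, 1.05, 3.83 and 2.59 CPM with the GFP virus and at 2.44, 1.33, 3.12 and 2.08 CPM with the Has2 virus. It was lower in 3 of 4 pairs and higher in the second, and the groups overlapped. A log2 fold change of -0.22 was fitted (SE 0.18), the 95% interval being -0.65 to 0.21 and the edgeR adjusted p 0.725. It ranged from -0.09 without the first pair to -0.37 without the second. For each library, the trend of log2 CPM, relative to the mean of the gene, with GC content and transcript length was also removed. The log2 fold change of Edn1 was then -0.10. The group means were 2.74 ± 1.24 and 2.24 ± 0.745 CPM (SD, n = 4 each). Their difference was smaller than the spread within either group, which includes variation between replicate numbers that the block takes out. Without the block the SE of the log2 fold change was 0.40.

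Ace, the enzyme that makes angiotensin II and also degrades bradykinin, was at 357, 320, 253 and 240 CPM with the GFP virus and at 422, 414, 376 and 294 CPM with the Has2 virus. Each Has2 virus library was above its own pair, by 1.18-, 1.29-, 1.49- and 1.22-fold, while the groups as a whole overlapped. Ace had a log2 fold change of 0.37 (SE 0.09, 95% interval 0.15 to 0.59) with an unadjusted p of 0.00604, and the edgeR adjusted p was 0.648. Without the block it was 0.36 with a larger error (SE 0.17). Leaving out any pair gave 0.30 to 0.44, and removal of the GC and length trend 0.28. The exact permutation test gave p = 0.125 over pairs, two-sided, the smallest that 4 pairs allow.

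Ece1, the enzyme that releases mature endothelin-1, was at 381, 359.6, 234 and 260.0 CPM with the GFP virus and at 401, 441, 307 and 273 CPM with the Has2 virus. Its pairs differed by 1.05-, 1.23-, 1.31- and 1.05-fold, all upwards, and the groups overlapped. Ece1 had a log2 fold change of 0.21 (SE 0.10), whose 95% interval of -0.02 to 0.44 includes 0, and an edgeR adjusted p of 0.648. It was 0.12 after removal of that trend and, in the fit without the block, from 0.08 without Has2 virus replicate 2 to 0.35 without GFP virus replicate 1. Ace and Ece1 were both higher in the female than in the male libraries within each group. For Ace the GFP virus libraries were at 320 and 357 CPM in females and 240 and 253 CPM in males, and for Ece1 at 359.6 and 381 CPM in females and 234 and 260.0 CPM in males. With 2 libraries a sex in each group this is a description.

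**Figure D3:**
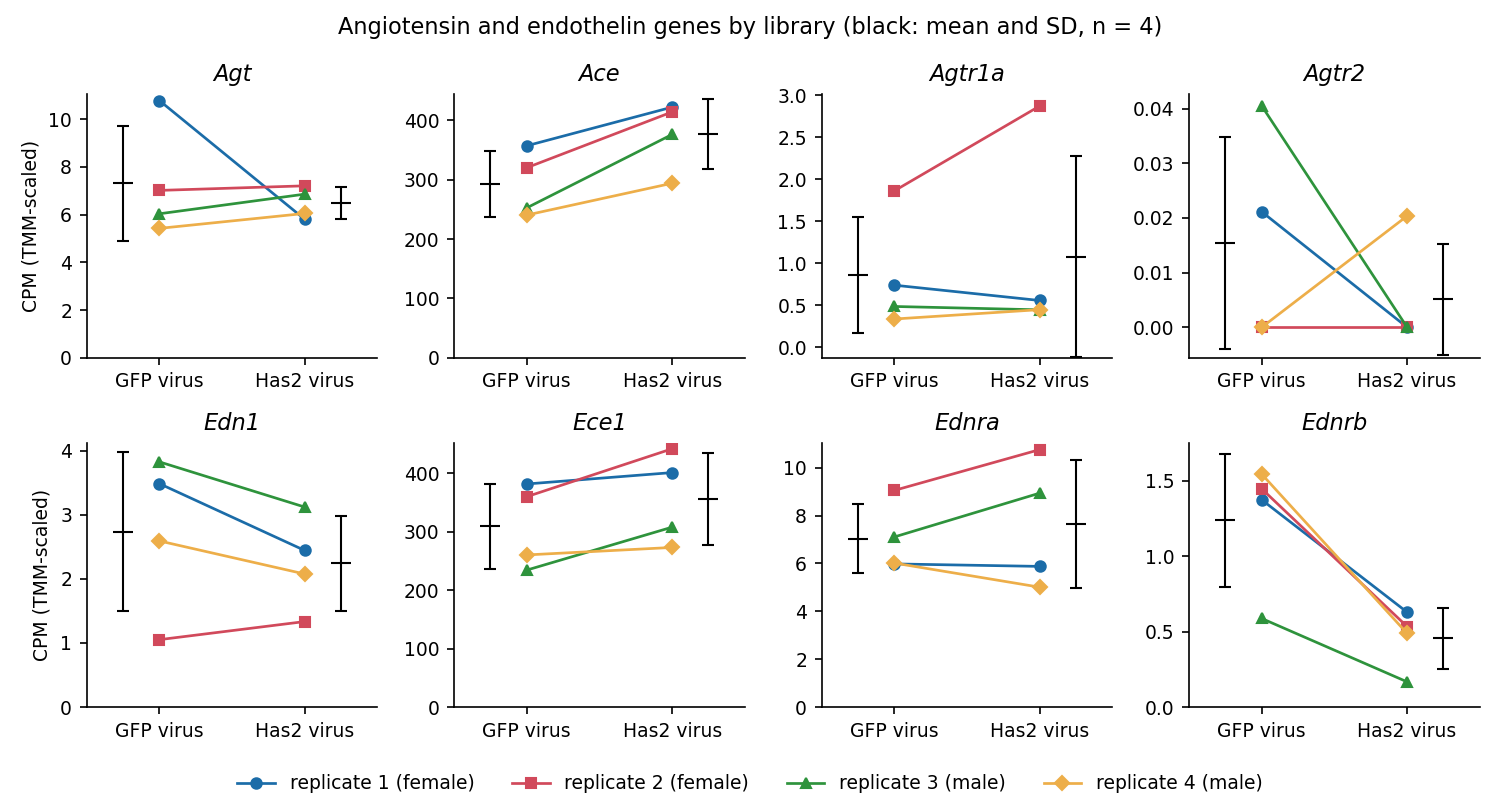
TMM-scaled CPM of each of the 8 genes in the 8 libraries, lines joining libraries of the same replicate number, black marks showing mean and SD (n = 4). Ednrb runs downwards and Ace and Ece1 upwards in each of the 4 pairs, and the Agtr2 values are single counts.

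Ednrb encodes ETB, which binds all endothelins and removes endothelin-1 by internalisation. It was at 1.37, 1.45, 0.587 and 1.54 CPM with the GFP virus and at 0.629, 0.534, 0.167 and 0.489 CPM with the Has2 virus. The groups overlapped only in that Has2 virus replicate 1 lay just above GFP virus replicate 3. The counts behind these values were 65, 66, 29 and 78 with the GFP virus and 35, 26, 9 and 24 with the Has2 virus, 238 against 94 in all.

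In the pairs, the Has2 virus level of Ednrb was 0.458, 0.369, 0.285 and 0.317 of the GFP virus level. The 95% exact intervals from counting error alone were 0.295 to 0.701, 0.225 to 0.589, 0.119 to 0.618 and 0.192 to 0.506, none of which includes 1. Cultures differ by more than counting error, which these intervals do not cover: for Ednra the same intervals were 1.04 to 1.36 in the second pair, 1.09 to 1.45 in the third and 0.701 to 0.988 in the fourth, in opposite directions. Fitted over the 4 pairs, Ednrb had a log2 fold change of -1.47 (SE 0.21, 95% interval -1.97 to -0.97). Its unadjusted p of 0.000238 was the 7th smallest of 15150, and the edgeR adjusted p was 0.516. Leaving out any pair gave -1.58 to -1.38, and without the block the log2 fold change was -1.44 (SE 0.44).

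Whether Ednrb was called depended on the tool and the filter. DESeq2 with the same block gave -1.46 and an adjusted p of 0.00737, in a fit that called 0.323% of genes lower. DESeq2 without the block gave an adjusted p of 0.533, and limma-voom with the block 0.472. edgeR without a filter on low counts gave an adjusted p of 0.0170, where 0.412% of the genes tested were called lower. The exact permutation tests of log2 CPM gave p = 0.125 over pairs and p = 0.0571 between the groups, both two-sided, where the smallest values possible are 0.125 and 0.0286.

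Endothelial cells and cells of the neural crest, melanocytes among them, are known to express Ednrb, so their markers were read beside it. Summed endothelial markers in a Has2 virus library were 0.944, 0.896, 1.00 and 0.960 of those in its pair. Summed Schwann cell and melanocyte markers (5 of 8 detected) were at 9.15 to 13.5 CPM over all libraries. They were 0.937, 0.887, 1.19 and 1.07 of those in the pair. Of the defining genes in that list, Sox10 had at most 1 count and Tyr at most 2 counts in any library. The part of such cells in the Ednrb values was not tested.

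Ednra, the ETA receptor that prefers endothelin-1, was at 5.98, 9.05, 7.11 and 6.01 CPM with the GFP virus and at 5.88, 10.8, 8.94 and 5.01 CPM with the Has2 virus. It was higher in 2 pairs and lower in 2 pairs, with wide overlap. Ednra had a log2 fold change of 0.08 (SE 0.14), or -0.0097 without the third pair, with a 95% interval of -0.26 to 0.41 and an edgeR adjusted p of 0.895. That interval spans 0 and does not reach the value fitted for Ednrb.

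The balance of the endothelin receptors was computed as the ratio of their levels per kilobase, a measure chosen after their values were seen. Ednra over Ednrb was 4.93, 7.09, 13.7 and 4.42 with the GFP virus and 10.6, 22.8, 60.6 and 11.6 with the Has2 virus. The ratio was higher in 4 of 4 pairs, by 1.58 ± 0.44 on the log2 scale (SD, n = 4 pairs). In the paired fit Ednra was at 0.08 and Ednrb at -1.47, so the ratio mostly restates the lower Ednrb and is not a separate result. The groups overlapped, since GFP virus replicate 3 lay above Has2 virus replicates 1 and 4. The exact permutation p was 0.125 over pairs, the smallest possible, and 0.0857 between groups, both two-sided. The ratio of 60.6 rests on 9 counts of Ednrb.

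Agtr1a, the main mouse AT1 receptor, has a similar paralogue in Agtr1b, and any reads that match both could be assigned to neither or divided. The first 90 coding bases of the genes, taken from GENCODE M21 transcripts, show how alike they are. Capitals mark the 8 positions at which they differ.
Agtr1a: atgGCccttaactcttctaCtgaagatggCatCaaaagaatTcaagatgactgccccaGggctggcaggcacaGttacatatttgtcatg
Agtr1b: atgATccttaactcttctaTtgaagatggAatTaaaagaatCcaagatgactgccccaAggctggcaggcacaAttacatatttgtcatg
Over the whole coding sequence 981 of 1080 bases were identical (90.8%), with a longest shared run of 66 bases. The endothelin receptors were far less alike, at 64.7% identity and a longest shared run of 12 bases. Agtr1b itself had 0 to 6 counts in a library.

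Agtr1a was at 0.739, 1.86, 0.486 and 0.336 CPM with the GFP virus and at 0.557, 2.87, 0.446 and 0.448 CPM with the Has2 virus. The replicate 2 library was the highest of its group with either virus, and the groups overlapped. Agtr1a had a log2 fold change of 0.16 (SE 0.25), with a 95% interval of -0.42 to 0.74 and an edgeR adjusted p of 0.860. Without the second pair it was -0.068. In the fit without the block it was -0.81 without Has2 virus replicate 2 and 1.05 without GFP virus replicate 2. The counts were 17 to 85 with the GFP virus and 22 to 140 with the Has2 virus. The ratios in the pairs were 0.753, 1.54, 0.918 and 1.33, of which only the second has a 95% counting interval that leaves out 1 (1.17 to 2.04).

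Agtr2, the AT2 receptor, was at the limit of detection. It had 1, 0, 2 and 0 counts with the GFP virus and 0, 0, 0 and 1 counts with the Has2 virus. A count of 0 allows up to 3 counts, or 0.0539 to 0.0657 CPM depending on the library. Agtr2 did not pass the expression filter, and no fold change was computed.

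Agtr1a and Edn1 varied widely between replicate numbers. The 4 pair means of log2 CPM had an SD of 1.11 for Agtr1a and 0.66 for Edn1, beside fitted differences between the viruses of 0.16 and -0.22. In both replicate 2 libraries Agtr1a was at its highest and Edn1 at its lowest of all 8 libraries. In the same libraries summed macrophage markers were lowest, at 969 and 912 CPM against 1730 to 2523 CPM elsewhere, and summed fibroblast markers were highest, at 32784 and 34561 CPM against 19827 to 27110 CPM. Summed endothelial markers, whose cells are a known source of Edn1, were also lowest there, at 35.6 and 31.9 CPM against 38.1 to 58.0 CPM. GFP virus replicate 3, at 38.1 CPM of these markers, nevertheless had the highest Edn1 of all 8 libraries, at 3.83 CPM. The part of these cell types in the levels of Agtr1a and Edn1 was not tested.

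**Figure D4:**
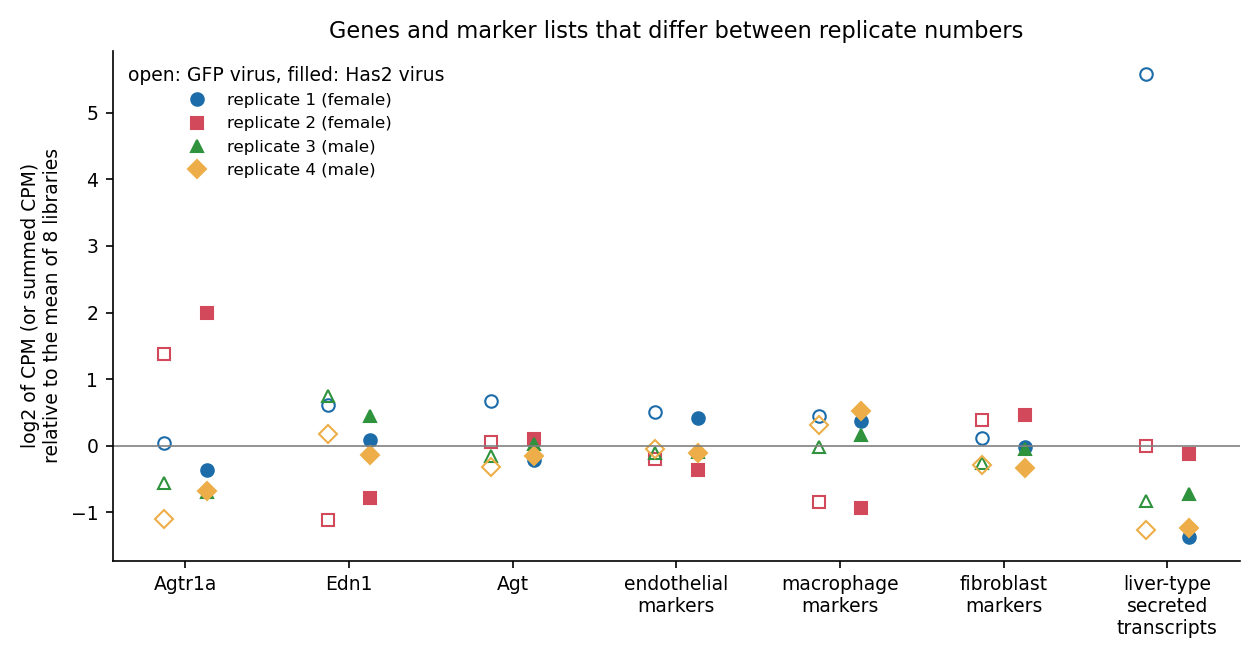
Log2 of CPM, or of summed CPM for marker lists, relative to the mean of the 8 libraries, with open symbols for the GFP virus and filled symbols for the Has2 virus. The replicate 2 libraries are highest for Agtr1a and fibroblast markers and lowest for Edn1, macrophage and endothelial markers, and GFP virus replicate 1 is highest for Agt and the liver-type transcripts.

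The genes whose log2 CPM over the 8 libraries was most like that of each member are given as a description, since groups of these libraries share sex, name code or virus. About 10303 genes with a mean of at least 5 CPM were searched, by Pearson's r. The nearest to Agtr1a were Gyg (r = 0.987), St3gal5 (0.977) and Tmem45a (0.977), and the nearest to Edn1 was Arntl2 (0.963). Ednrb was most like Ptk2 (0.950), Nars (0.932) and B2m (0.919). Ece1 was most like Gas7 (0.989), Gpc6 (0.983) and Sh3rf3 (0.982), Ace like Etv5 (0.974), and Ednra like Tmem241 (0.966). The nearest to Agt were Apoa2 (0.917) and Ahsg (0.916), which are among the liver-type transcripts of GFP virus replicate 1.

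The difference between the viruses was next compared between the sexes. Ednrb was lower in the female pairs by a log2 fold change of -1.27 (SE 0.29) and in the male pairs by -1.71 (SE 0.33). The difference of these values, male minus female, was -0.43 (95% interval -1.43 to 0.56, edgeR adjusted p = 0.511), and 0.038 after removal of the GC and length trend. For Ace the values were 0.31 (SE 0.10) in females and 0.43 (SE 0.10) in males, with a difference of 0.13 (95% interval -0.18 to 0.43, edgeR adjusted p = 0.542). For Agt they were -0.44 (SE 0.19) in females, which include GFP virus replicate 1, and 0.17 (SE 0.19) in males. The difference of 0.61 for Agt (95% interval 0.01 to 1.20) had an edgeR adjusted p of 0.117, and it was 0.24 (edgeR adjusted p = 0.659) after removal of the trend.

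None of the 7 members was called for a difference between the sexes, in a fit that called 29.5% of all genes. With 7 members that count is a description. Without the block no gene at all was called for such a difference. After removal of the GC and length trend, 0 of 7 members and 10.6% of genes were called. For Agtr1a, Edn1, Ednra and Ece1 the differences lay between -0.14 and 0.05. The SE of the value in 1 sex ran from 0.10 for Ece1 in females to 0.40 for Agtr1a in males. The virus effects of the sexes, each from 2 pairs, were fitted in a single model of all 8 libraries with shared error estimates. In it Ednrb was called lower in females (edgeR adjusted p = 0.0312), where 4.83% of genes were. It was also called lower in males (edgeR adjusted p = 0.00305), where 19.2% were. Ace was called higher in males (edgeR adjusted p = 0.00822), where 5.68% of genes were. In females its edgeR adjusted p was 0.0842. The error of this model comes from how far the 2 pairs of each sex differ, with estimates shared over genes. The fit with a common virus effect over all 4 pairs called 0.0066% of genes.

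Around these 8 genes, 5 lists of further genes of the pathways were read in the same fit, and none of their members was called by edgeR over the 4 pairs. In the model with a virus effect for each sex, 7.23% of all genes were called for the female pairs. There edgeR called 0 other angiotensin, 0 other endothelin, 1 kinin, 1 signalling and 2 responsive genes. For the male pairs, where 24.9% of all genes were called, these numbers were 6, 1, 0, 11 and 4. Of 18 other angiotensin genes 12 could be tested, with a median log2 fold change of -0.04. At an unadjusted p under 0.05, 1 was higher and 1 lower, beside 2.57% and 4.91% of all genes tested. With the block, DESeq2 called 61 and limma-voom 1 of all 15150 genes tested, and both called 0 of the other angiotensin genes. Renin (Ren1), the angiotensin-(1-7) receptor Mas1 and the chymase-like protease Ctsg had 0 counts in every library. The genes of the 5 lists whose fold changes are given below were picked by the smallest p in their list.

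Atp6ap2, the (pro)renin receptor, was at 96.4, 92.2, 93.5 and 94.4 CPM with the GFP virus and at 82.9, 84.5, 52.8 and 55.8 CPM with the Has2 virus. All Has2 virus libraries lay below all GFP virus libraries, with the male ones furthest down. The groups did not overlap, in either direction, for 2.38% of all genes tested. Atp6ap2 had a log2 fold change of -0.48 (SE 0.15, edgeR adjusted p = 0.648), but of -0.12 after removal of the GC and length trend. The aminopeptidase Anpep, which trims angiotensin peptides, was higher in 4 of 4 pairs at 0.24 (SE 0.10). For the angiotensin IV binding aminopeptidase Lnpep the value was -0.50 (SE 0.31), and for neprilysin (Mme), which degrades both angiotensins and endothelins, -0.60 (SE 0.39). With the trend removed these were -0.22 and -0.23.

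Of 5 other endothelin genes, Edn2 and Kel had 0 counts throughout, Edn3 had at most 1 count in a library, and 2 could be tested. Ecel1, a membrane protease of the Ece1 family, was at 0.317, 0.153, 0.101 and 0.178 CPM with the GFP virus and at 0.629, 0.677, 0.390 and 0.570 CPM with the Has2 virus. The groups did not overlap, as for 2.38% of all genes tested, and the counts were 5 to 15 against 21 to 35. The log2 fold change of Ecel1 was 1.61 (SE 0.30), with an unadjusted p of 0.00105 and an edgeR adjusted p of 0.595. For Ece2, the other converting enzyme, the log2 fold change was 0.15 (SE 0.22), with pairs in both directions.

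The kinin system shares Ace as its degrading enzyme. Of its 5 genes 4 could be tested, none at an unadjusted p under 0.05. All 4 had negative log2 fold changes, with a median of -0.54, beside 8296 of all 15150 genes tested with negative values. The bradykinin receptor Bdkrb1 was lower in 4 of 4 pairs at -0.41 (SE 0.19), and the kininogen Kng2 was at -0.67 (SE 0.31). Without the first pair Kng2 was at -0.23, and in the fit without the block it was at 0.086 without GFP virus replicate 1. The other bradykinin receptor, Bdkrb2, had 1 to 35 counts in a library and was at -0.22 (SE 0.41). Kng1 was at 15.3 CPM in GFP virus replicate 1 and at most 0.351 CPM elsewhere. Its log2 fold change of -2.24 (SE 1.39) became 0.12 without that pair, and that library is the one with the liver-type transcripts.

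Downstream, 26 genes of receptor G protein signalling were all tested, with a median log2 fold change of 0.05. At an unadjusted p under 0.05, 1 was higher and 2 were lower, beside 2.57% and 4.91% of all genes tested. Rgs2, which shortens Gq signals of AT1 and ETA receptors, was at 16.2, 7.03, 17.6 and 21.1 CPM with the GFP virus and at 12.5, 5.64, 9.36 and 14.8 CPM with the Has2 virus. It was lower in 4 of 4 pairs, at -0.53 (SE 0.13, edgeR adjusted p = 0.648), and at -0.31 after removal of the GC and length trend. The inhibitory G protein subunit Gnai3 was at -0.68 (SE 0.27), or -0.39 with the trend removed. The Gq family subunit Gna11 and the regulator Rgs3 were at 0.23 each (SE 0.09 and 0.11), or 0.15 each with the trend removed.

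Another 16 genes, known to respond to angiotensin II or endothelin-1, had a median log2 fold change of 0.01. At an unadjusted p under 0.05, 2 of them were higher and 1 lower, beside 2.57% and 4.91% of all genes tested. Rcan1, a calcineurin inhibitor induced by calcium signals, was at 40.4, 40.2, 34.1 and 38.3 CPM with the GFP virus and at 68.9, 50.1, 49.4 and 57.0 CPM with the Has2 virus. All Has2 virus libraries lay above all GFP virus libraries, beside 2.38% of all genes tested without overlap in either direction. The log2 fold change of Rcan1 was 0.55 (SE 0.11), with an edgeR adjusted p of 0.621, and DESeq2 with the block gave an adjusted p of 0.00430. Fibronectin (Fn1) was at 0.44 (SE 0.14), Tgfb1 at 0.20 (SE 0.11), and the cytokine Il6 at -0.74 (SE 0.29), or -0.34 with the trend removed. DESeq2 with the block called 61 of all 15150 genes tested. Among them were 0 genes of the endothelin, kinin and signalling lists and Rcan1 alone of the responsive genes.

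**Figure D5:**
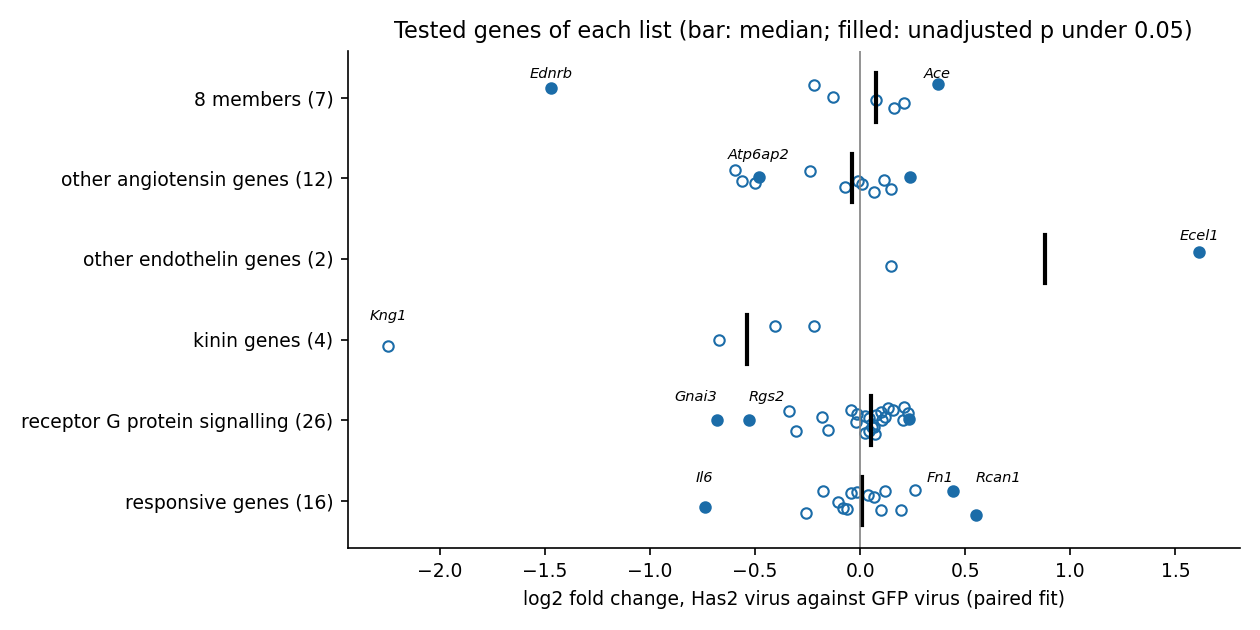
Log2 fold change, Has2 virus against GFP virus in the paired fit, of the tested genes of each list, with a bar at the median and filled points at an unadjusted p under 0.05. Ednrb at -1.47, Ecel1 at 1.61 and Kng1 at -2.24 lie furthest from 0, and the list medians other than those of the 2 endothelin and 4 kinin genes lie within 0.08 of 0.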

How the data were processed

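Libraries of poly(A) RNA from 8 cultures were strand-specific, per the labels' protocols. Values deposited by the authors are raw read counts of Ensembl genes. Per the submitters' processing notes they used FastQC 0.10.1, HTSeq 0.10.0 and the build mm39 (GRCm39). Not given in the sources used here are the aligner, annotation release and strand setting, so how reads were divided between overlapping, antisense or nearly identical genes is unknown.

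Symbols came from GENCODE M21, which annotates an older build, so no coordinates are given. Of 55414 identifiers 3333 had no symbol (0.405% to 0.871% of counts) and stayed in the tests. Coding sequences are the longest open reading frames of M21 transcripts.

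Genes were tested with edgeR 4.0.16 in R 4.3.3: TMM, default expression filter, quasi-likelihood F-test with the replicate number as a block, Benjamini-Hochberg over 15150 genes at 0.05. The block is used because same-numbered libraries share the code that opens the library name in the labels; deviations of such libraries from their group means had correlations of 0.58, 0.62, 0.53 and 0.44. The median SE of a log2 fold change was 0.14 with the block and 0.23 without. Every pair of libraries in a group differed beyond sampling noise (chi-square per degree of freedom 45.4 to 368).

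Alternatives were no block, other scalings and filters, DESeq2 1.42.0, and limma-voom (limma 3.58.1). Another was removal of the trend with GC content and length in each library (splines with 5 degrees of freedom, 99.8% of genes covered). A virus effect for each sex in a single model, and leaving out each pair or library, were also run. Permutation tests used log2 CPM with a pseudocount of 2. Intervals from counts cover only counting error, because without molecular identifiers reads may be copies of one molecule.

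Besides the members, the text names up to 4 genes of each list by smallest p, genes without counts, and up to 3 genes most like each member. The members and lists were chosen with earlier results of these data known. A Cre virus that the protocol mentions is not analysed here. One gene of the list of other angiotensin genes is not reported here by name.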

Additional observations from a re-analysis of the deposited data

Results flagged for a closer look

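In 52 groups of 4 libraries checked for a single library far from the others, 3 were flagged, and chance flags about 1 in 20. Agtr1a was at 2.87 CPM in Has2 virus replicate 2, against 0.446 to 0.557 CPM in the other Has2 virus libraries. Agtr2 was at 0.0204 CPM in Has2 virus replicate 4, a single count against 0 counts in the others. Kng1 was at 15.3 CPM in GFP virus replicate 1.

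The log2 fold change differed between the sexes for 5 of the named genes in the paired fit, in which 29.5% of all genes tested were called for such a difference. Male minus female, it was -0.62 for Atp6ap2 (edgeR adjusted p = 0.00275), -1.50 for Lnpep, -1.29 for Gnai3, -1.38 for Il6 and 5.34 for Kng1 (edgeR adjusted p = 0.0247). After removal of the GC and length trend, the differences were 0.04 for Atp6ap2, -0.32 for Lnpep, -0.69 for Gnai3 (edgeR adjusted p = 0.0104), -0.62 for Il6 (edgeR adjusted p = 0.0140) and 5.42 for Kng1. The value for Kng1 rests on GFP virus replicate 1, a female library.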

How the results depend on the processing

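Of the 7 members, Ace, Edn1, Ednrb and Ece1 kept their direction in every alternative run. Ednrb was also called by edgeR without a low-count filter (-1.45), by DESeq2 with the block (-1.46) and in female (-1.27) and male (-1.71) pairs, and Ace in male pairs (0.43), so members called numbered 1, 1, 1 and 2 there. Leaving out pairs, or libraries in the fit with no replicate block, gave Agt -0.23 to 0.16 and -0.26 to 0.10 (0.17 in male pairs), Agtr1a -0.068 to 0.38 and -0.81 to 1.05, and Ednra -0.0097 to 0.21 and -0.090 to 0.28. Male minus female, Ednra (0.047), Ednrb (0.038) and Ece1 (-0.048) turned sign after removal of the GC and length trend, and Ece1 with library totals (-0.00024). Of the other named genes, signs turned in female pairs for Lnpep (0.25), Mme (0.14) and Ece2 (-0.23), in male pairs for Kng1 (0.55), and on leaving out pairs or libraries for Ece2 (-0.054 to 0.35; -0.033 to 0.34), Kng1 (up to 0.12; -4.63 to 0.039), Bdkrb2 (-0.50 to 0.014; -0.58 to 0.36, 0.23 without Has2 virus replicate 2) and Kng2 (libraries, -1.21 to 0.086). Genes called numbered 1 in the paired fit, 1 with no replicate block, 0 with library totals, 118 without a filter, 61 and 7 by DESeq2 with and without the block, 2 with the trend removed, 0 to 1 on leaving out a pair, 1095 in female and 3765 in male pairs. Called for a difference between sexes were 4470 genes, 0 with no replicate block and 1610 with the trend removed. Leaving out a pair shows only that a value depends on it, and the causes of these changes were not tested. Counts of 0 to 140 limit Agtr1a, Agtr2 and Ednrb.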
